A study of Arabidopsis thaliana with 23 samples.

Results

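Brassinosteroids are the steroid hormones of plants, and 10 Arabidopsis thaliana genes that make them, break them down or carry their signal into the nucleus were followed across 5 groups of RNA-seq libraries. The genes were chosen by their locus identifiers, and all 10 were found in both gene count tables, out of 32833 genes in the larger one. They are 6 synthesis enzymes (DET2, DWF4, CPD, ROT3, BR6OX1 and BR6OX2), the inactivating enzymes BAS1 and SOB7, and the transcription factors BZR1 and BES1. The 6 seedling libraries came from whole Col-0 seedlings kept for 7 days on plates with 2.5 µM rac-GR24, a synthetic strigolactone analogue, or with its solvent DMSO. The 9 axillary libraries came from axillary buds taken with the leaf axil beneath them, from intact wild type (WT), from the intact mutant brc1-2, which carries an allele of the bud outgrowth repressor gene BRC1, and from WT whose main shoot had been cut off under the lowest cauline node (decapitated WT). Each group had 3 libraries. The labels state neither the time between decapitation and harvest nor the number of plants in a library.

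Brassinosteroid synthesis starts from plant sterols and runs through a chain of reductions and oxidations, most of them by cytochrome P450 enzymes, to castasterone and brassinolide. The hormone binds the receptor kinase BRI1 at the cell surface, which leads to loss of the kinase BIN2 and lets BZR1 and BES1 act in the nucleus. These factors repress several synthesis genes, so the pathway limits its own output, and they act on genes of cell elongation and, at organ boundaries and in bud growth, on genes that shape the shoot.

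Total counts ran from 31209344 to 44442493 in the seedling libraries and from 47462342 to 61228766 in the axillary libraries. BRC1, the gene mutated in brc1-2, had 392, 373 and 423 counts in intact WT, 2, 4 and 2 counts in brc1-2, and 95, 99 and 77 counts in decapitated WT. In seedlings it had 0, 0 and 2 counts in DMSO and 279, 140 and 94 counts on rac-GR24. Marker genes of the axil and meristem summed to between 48.8 and 62.5 CPM (counts scaled by library size, so that libraries can be compared) in the axillary libraries and to between 8.23 and 17.2 CPM in the seedlings. With counts added over the 3 libraries of a group, here and for the markers below, all 6 were above 3 counts in every axillary group. BRC1 passed this mark in brc1-2 only as a total of the 2, 4 and 2 counts given above. STM carried most of the axillary sum, with group means of 38.7 to 46.3 CPM against 2.41 and 4.11 CPM in seedlings. LAS did not follow it, with 0.741 to 0.895 CPM in axils against 1.6 and 1.91 CPM in seedlings, nor did RAX1, with 0.78 to 1.24 against 1.19 and 2.18 CPM. The axillary groups differed in other markers too. The 9 leaf photosynthesis genes summed to between 28449 and 28712 CPM in intact WT, between 36858 and 37337 CPM in brc1-2 and between 23144 and 24179 CPM in decapitated WT. Tapetum and pollen genes, 5 of 8 of them above 3 counts in brc1-2, summed there to between 11.6 and 11.7 CPM, against at most 0.239 CPM in intact WT and 1.06 CPM in decapitated WT. These are bulk tissues, so fewer cells of a type and less RNA per cell cannot be told apart.

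Levels are given as CPM per kilobase of exon, which allows genes of different length to be compared. BES1 was the most abundant of the 10 transcripts in 4 of the 5 groups, at 92.6 ± 8.73 CPM per kilobase (SD, n = 3) in DMSO seedlings and 72.9 ± 1.99 in intact WT axils. CPD, at 60.2 ± 1.41 CPM per kilobase in intact WT, came next in those 4 groups. In decapitated WT the means of CPD, 48.9 CPM per kilobase, and BES1, 47.8 CPM per kilobase, were close and their libraries overlapped. BR6OX1 was the lowest in all 5 groups, between 0.185 CPM per kilobase in decapitated WT and 0.811 CPM per kilobase on rac-GR24, and SOB7 was the next lowest. Between these ends the order differed from tissue to tissue. In DMSO seedlings it ran CPD, BAS1, BR6OX2, ROT3, BZR1, DWF4 and DET2, and CPD and BAS1 were the only neighbours whose libraries overlapped. In intact WT axils it ran CPD, BZR1, DET2, ROT3, BR6OX2, DWF4 and BAS1, with no overlap between any neighbours. In brc1-2 ROT3 came after DWF4, and its libraries overlapped those of DWF4.

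**Figure D1:**
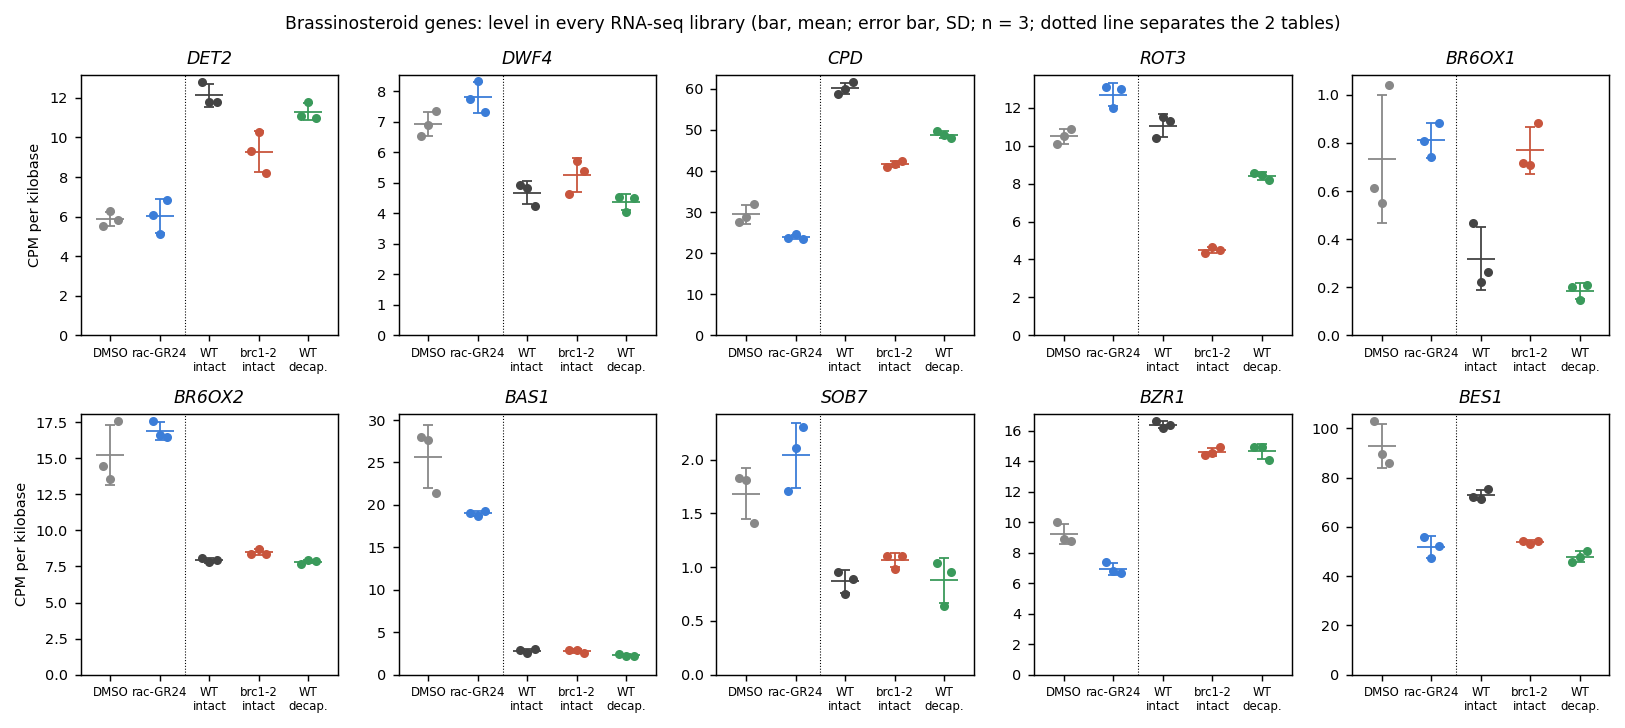
Level of each of the 10 genes in every library, in CPM per kilobase, for the 5 groups (points, libraries; bar and error bar, mean and SD of 3). ROT3 in brc1-2 lies at 4.36 to 4.66 CPM per kilobase, below every other library, and BES1 in the treated or mutant groups lies below the control of its own table.

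Changes are given as log2 changes with the standard error (SE) calculated back from the test, and a gene is said to rise or fall when the adjusted p of edgeR's quasi-likelihood test, over all genes tested, was under 0.05. On rac-GR24 1 of the 10 genes rose (ROT3) and 4 fell (CPD, BAS1, BZR1 and BES1), where 24% of all 21063 genes tested were called, 12.4% higher and 11.7% lower. In brc1-2 against intact WT 1 gene rose (BR6OX1) and 5 fell (CPD, DET2, ROT3, BZR1 and BES1), where 60.9% of 21539 genes were called, 30.4% higher and 30.5% lower. After decapitation 0 genes rose and 5 fell (CPD, ROT3, BAS1, BZR1 and BES1), where 62.9% were called, 29.4% higher and 33.5% lower. The majority of that background turned with the setting, to 6880 higher and 6803 lower with no filter on low counts and to 6677 and 6607 when only the 2 groups compared were fitted. DESeq2 likewise called 0 higher after decapitation, and 0 were higher at an unadjusted p under 0.05. The total counts of called genes in the axillary comparisons, 6 and 5 of 10, are thus near the background share, and no test of the split by direction was run. The median log2 change of the 10 genes was 0.07, -0.09 and -0.23 in these comparisons, and that of all genes tested was 0.00, 0.00 and -0.03. The last 2 comparisons share the intact WT libraries, so their values are set side by side below without being counted as separate support. Decapitated WT was also compared directly with brc1-2, where 3 genes were higher (CPD, DET2 and ROT3) and 4 lower (DWF4, BR6OX1, BAS1 and BES1), against 48.5% of all genes, 24.4% higher and 24.1% lower. The median there was -0.15 for the 10 genes and 0.00 for all genes.

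**Figure D2:**
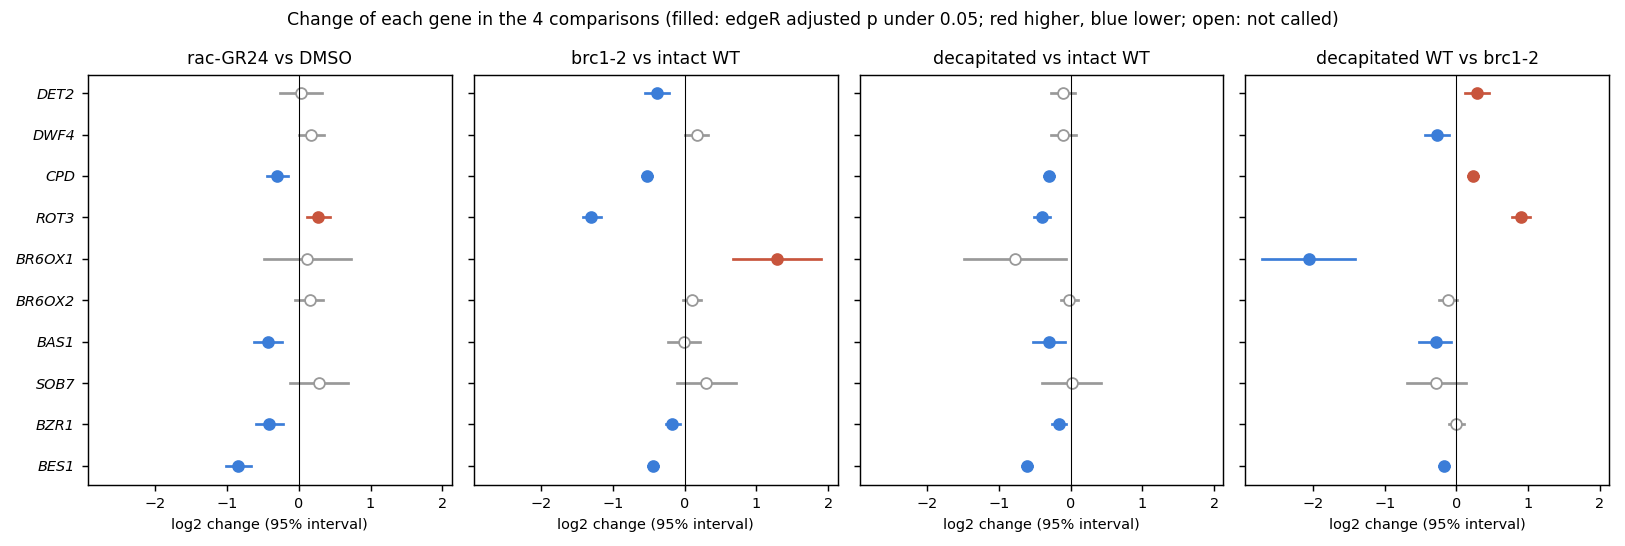
Log2 change of each gene with its 95% interval in the 4 comparisons (filled, adjusted p under 0.05; red higher, blue lower; open, not called). BES1 is lower in every panel, and ROT3 and BR6OX1 show the widest span between panels, from -1.30 to 0.90 and from -2.06 to 1.29.

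DET2 (AT2G38050; TAIR10 chromosome 2, 15921136 to 15922321, minus strand) encodes the steroid reductase that acts early in the pathway. In axillary tissue it had 12.8, 11.8 and 11.8 CPM per kilobase in intact WT, 9.32, 10.3 and 8.21 in brc1-2, and 11.1, 11.8 and 11.0 in decapitated WT. All brc1-2 libraries lay below all intact WT libraries, while decapitated and intact WT overlapped. DET2 fell by 0.39 ± 0.08 on the log2 scale in brc1-2 (adjusted p 1.7e-04). Its change after decapitation was -0.10 ± 0.08, with a 95% interval from -0.27 to 0.06. Decapitated WT was higher than brc1-2 by 0.29 ± 0.08 (adjusted p 0.0049), a call that was lost without brc1-2 library 2b, at 0.20 and an adjusted p of 0.059. In seedlings DET2 stood at 5.54, 6.26 and 5.82 CPM per kilobase in DMSO and 6.1, 5.13 and 6.84 on rac-GR24. Those groups overlapped, and the change of 0.03 ± 0.14 has an interval from -0.26 to 0.33. DET2 shares 3.18% of its exon bases with CAC3 on the opposite strand, which averaged 212 CPM in intact WT and brc1-2. CAC3 was higher in brc1-2 (0.61, adjusted p 3.5e-16) and after decapitation (0.43, adjusted p 6.3e-13). It was lower on rac-GR24 (-0.27) and in decapitated WT against brc1-2 (-0.18). CPD and ROT3 share 1.04% and 3.46% of their exon bases with other genes.

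DWF4 (AT3G50660; chromosome 3, 18813949 to 18817405, minus strand) encodes the hydroxylase regarded as the rate-limiting step of brassinosteroid synthesis and is a direct target of BZR1. Seedling libraries gave 6.54, 6.89 and 7.34 CPM per kilobase in DMSO and 7.74, 8.33 and 7.33 on rac-GR24. Axillary libraries gave 4.94, 4.84 and 4.24 in intact WT, 4.63, 5.71 and 5.39 in brc1-2, and 4.52, 4.05 and 4.51 in decapitated WT. Libraries overlapped in each comparison with a control group, and DWF4 passed none of those tests. The changes were 0.17 ± 0.08 on rac-GR24 (adjusted p 0.15), 0.17 ± 0.08 in brc1-2 (adjusted p 0.072) and -0.10 ± 0.08 after decapitation (adjusted p 0.29). The brc1-2 change was 0.25 with an adjusted p of 0.013 without brc1-2 library 1, and 0.10 and not called without brc1-2 library 2a or intact WT library 3. Between decapitated WT and brc1-2 the libraries did not overlap, and DWF4 was lower by 0.27 on the log2 scale in decapitated WT (-0.27 ± 0.08, adjusted p 0.0069). That call was lost without brc1-2 library 2a, at -0.20 and an adjusted p of 0.066.

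CPD (AT5G05690; chromosome 5, 1702640 to 1706948, minus strand) encodes another P450 of the pathway and is, like DWF4, a gene that BZR1 represses. DMSO seedlings had 27.6, 28.8 and 31.9 CPM per kilobase and rac-GR24 seedlings 23.8, 24.6 and 23.5. Intact WT axils had 58.8, 60.1 and 61.6, brc1-2 axils 41.1, 41.6 and 42.4, and decapitated WT axils 49.7, 48.9 and 48.0. No groups overlapped in any comparison, and the 3 axillary groups formed 3 separate levels with intact WT highest and brc1-2 lowest. CPD fell by 0.30 ± 0.07 on rac-GR24 (adjusted p 0.0046). It fell by 0.53 ± 0.03 in brc1-2 (adjusted p 4.7e-14) and by 0.30 ± 0.03 after decapitation (adjusted p 4.6e-09). The fall in brc1-2 was the larger one, since decapitated WT was above brc1-2 by 0.23 ± 0.03 (adjusted p 1.3e-06).

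ROT3 (AT4G36380; chromosome 4, 17187528 to 17192507, minus strand) encodes a hydroxylase that shares its reaction with CYP90D1, and it showed the largest fall of the 10 genes in brc1-2. Intact WT had 10.4, 11.5 and 11.3 CPM per kilobase, brc1-2 4.36, 4.66 and 4.48, and decapitated WT 8.57, 8.44 and 8.2. The 3 groups did not overlap, and decapitated WT lay between the other two. ROT3 was 0.407 times its intact WT level in brc1-2 (-1.30 ± 0.06, adjusted p 9.0e-17) and 0.76 times after decapitation (-0.40 ± 0.06, adjusted p 8.5e-07). Decapitated WT was above brc1-2 by 0.90 ± 0.06 (adjusted p 8.2e-13). In seedlings the libraries gave 10.1, 10.5 and 10.9 CPM per kilobase in DMSO and 13.1, 12.0 and 13.0 on rac-GR24. All rac-GR24 libraries were the higher ones, and ROT3 rose by 0.27 ± 0.07 (adjusted p 0.012). That call was lost without rac-GR24 library 1 (0.25, adjusted p 0.0539) or library 3 (0.26, adjusted p 0.0506). CYP90D1, its partner in the reaction, rose on rac-GR24 by 0.86 ± 0.10 (adjusted p 2.5e-05). In axillary tissue CYP90D1 was lower in brc1-2 (-0.36, adjusted p 0.035) and after decapitation (-0.37, adjusted p 0.03).

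BR6OX1 (AT5G38970; chromosome 5, 15594674 to 15598089, minus strand) and BR6OX2 (AT3G30180; chromosome 3, 11810726 to 11813883, plus strand) encode the oxidases of the last steps, of which BR6OX2 also converts castasterone to brassinolide. BR6OX1 was a rare transcript with 48, 26 and 29 counts in intact WT, 74, 81 and 110 in brc1-2, and 22, 17 and 21 in decapitated WT. Per length this was 0.468, 0.223 and 0.263 CPM per kilobase in intact WT, 0.718, 0.709 and 0.883 in brc1-2, and 0.199, 0.146 and 0.21 in decapitated WT. The 3 groups did not overlap, although intact WT library 1 stood well above the other two of its group. BR6OX1 rose 2.44-fold in brc1-2 (1.29 ± 0.30, adjusted p 4.6e-04). The change after decapitation, -0.77 ± 0.34, missed the threshold (adjusted p 0.0527), and it depended on the intact WT libraries. Without library 1, the high one, it was -0.40 and not called, and it passed without library 2 (-0.98, adjusted p 0.023) or library 3 (-0.89, adjusted p 0.045). Decapitated WT was at 0.24 times the brc1-2 level (-2.06 ± 0.32, adjusted p 3.9e-06).

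BR6OX2 was far more abundant and steady in axils, with 8.08, 7.78 and 7.92 CPM per kilobase in intact WT, 8.38, 8.72 and 8.39 in brc1-2, and 7.69, 7.94 and 7.9 in decapitated WT. All brc1-2 libraries were above those of the other two groups, by a margin too small to pass the test. The changes were 0.10 ± 0.06 in brc1-2 (interval -0.03 to 0.23) and -0.02 ± 0.06 after decapitation (interval -0.14 to 0.11). In seedlings BR6OX2 gave 14.5, 13.6 and 17.6 CPM per kilobase in DMSO and 17.6, 16.6 and 16.5 on rac-GR24, and BR6OX1 gave 0.614, 0.551 and 1.04 in DMSO and 0.808, 0.741 and 0.884 on rac-GR24. In both genes DMSO library 3 was the highest of its group and the treatments overlapped. Neither change passed the test, at 0.15 ± 0.09 for BR6OX2 and 0.12 ± 0.28 for BR6OX1. The change of BR6OX2 was 0.07 and not called without DMSO library 2, and 0.27 with an adjusted p of 0.024 without DMSO library 3. That of BR6OX1 ranged from -0.04 to 0.47 as single libraries were left out and was called in no case.

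BAS1 (AT2G26710; chromosome 2, 11380463 to 11383821, plus strand) encodes a P450 that hydroxylates active brassinosteroids and so removes them. In seedlings it had 28.0, 27.6 and 21.4 CPM per kilobase in DMSO and 19.0, 18.7 and 19.3 on rac-GR24. DMSO library 3 was the lowest control and still above every rac-GR24 library. BAS1 fell by 0.43 ± 0.09 on rac-GR24 (adjusted p 0.0024), to 0.741 times the DMSO level. In axils it had 2.88, 2.52 and 3.01 CPM per kilobase in intact WT, 2.9, 2.89 and 2.55 in brc1-2, and 2.41, 2.19 and 2.21 in decapitated WT. Intact WT and brc1-2 overlapped, and every decapitated library was below both. The change in brc1-2 was -0.01 ± 0.11 (interval -0.23 to 0.21). BAS1 was lower after decapitation than in intact WT (-0.30 ± 0.11, adjusted p 0.017) and than in brc1-2 (-0.29 ± 0.11, adjusted p 0.029). Both calls depended on which libraries were kept. The first was lost without decapitated library 2 (adjusted p 0.055) or intact WT library 1 (0.0502) or 3 (0.08), and the second without decapitated library 2 (0.087) or 3 (0.064), without brc1-2 library 1 (0.092) or 2a (0.09), and with no filter on low counts (0.06).

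SOB7 (AT1G17060; chromosome 1, 5832094 to 5835488, minus strand) encodes a second P450 that lowers brassinosteroid activity. It had 1.83, 1.81 and 1.41 CPM per kilobase in DMSO and 1.71, 2.11 and 2.3 on rac-GR24. In axils it had 0.957, 0.753 and 0.889 in intact WT, 1.1, 0.986 and 1.1 in brc1-2, and 1.04, 0.641 and 0.951 in decapitated WT. Seedling groups overlapped, as did decapitated and intact WT, while the brc1-2 libraries were all above intact WT. SOB7 passed the test in none of the 4 comparisons. Its changes were 0.28 ± 0.19 on rac-GR24, 0.30 ± 0.20 in brc1-2, 0.02 ± 0.20 after decapitation and -0.28 ± 0.20 in decapitated WT against brc1-2, with intervals that reach up to 0.71 and down to -0.69. Of its exon bases 34.7% are shared with AT1G17065 on the other strand, a gene with at most 0.312 CPM on average, and no source states whether strand was used in counting.

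BAS1 had the largest gap between the tables. Its mean was 25.7 ± 3.7 CPM per kilobase in DMSO seedlings and 2.8 ± 0.253 in intact WT axils, and 40.9 against 4.24 TPM, a length-scaled level with the same total in every library. BR6OX2 was also higher in seedlings, at 15.2 against 7.93 CPM per kilobase, as were BR6OX1 (0.734 against 0.318) and SOB7 (1.68 against 0.867). DWF4 (6.92 against 4.67) and BES1 (92.6 against 72.9) were higher there too. CPD, DET2 and BZR1 were higher in axils, at 60.2, 12.1 and 16.4 CPM per kilobase against 29.4, 5.88 and 9.22. ROT3 was at 11.1 in axils against 10.5 in seedlings, and at 16.7 against 16.8 TPM, so its order turned with the unit. The tables differ in tissue, age and batch label together, so these levels were not tested and their sources cannot be told apart.

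BES1 (AT1G19350; chromosome 1, 6688463 to 6691216, plus strand) encodes a factor that BIN2 phosphorylates and that binds to hormone response genes once freed. DMSO seedlings had 103.0, 89.4 and 86.0 CPM per kilobase and rac-GR24 seedlings 55.9, 47.2 and 52.3. Intact WT axils had 72.2, 71.4 and 75.2, brc1-2 axils 54.2, 53.0 and 54.3, and decapitated WT axils 45.7, 47.7 and 50.1. Every treated or mutant library was below every control library, and decapitated WT was also below brc1-2 throughout. BES1 fell by 0.84 ± 0.08 on rac-GR24 (adjusted p 3.5e-06), to 0.56 times the DMSO level. It fell by 0.44 ± 0.03 in brc1-2 (adjusted p 6.3e-12) and by 0.61 ± 0.03 after decapitation (adjusted p 4.7e-15). Decapitated WT was lower than brc1-2 by 0.17 on the log2 scale (-0.17 ± 0.03, adjusted p 1.3e-04). BES1 shares 33.6% of its exon bases with RRA3 on the opposite strand. RRA3 was called in none of the 4 comparisons, with changes of 0.15, -0.01, -0.12 and -0.11 in the order given above.

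BZR1 (AT1G75080; chromosome 1, 28185504 to 28188075, plus strand), the close paralog of BES1, moved in the same direction by less. Seedling libraries gave 10, 8.88 and 8.78 CPM per kilobase in DMSO and 7.36, 6.78 and 6.66 on rac-GR24. Axillary libraries gave 16.6, 16.2 and 16.4 in intact WT, 14.4, 14.5 and 14.9 in brc1-2, and 14.9, 14.9 and 14.1 in decapitated WT. The controls were above the treated or mutant libraries each time, while brc1-2 and decapitated WT overlapped. BZR1 fell by 0.41 ± 0.09 on rac-GR24 (adjusted p 0.0041), by 0.17 ± 0.05 in brc1-2 (adjusted p 0.0034) and by 0.16 ± 0.05 after decapitation (adjusted p 0.0036). Decapitated WT and brc1-2 differed by 0.00 ± 0.05, with an interval from -0.10 to 0.10. BZR1 shares 26.1% of its exon bases with genes on the other strand, of which AT1G75090 was higher in brc1-2 (0.45, adjusted p 0.0048) and after decapitation (0.35, adjusted p 0.023). No source states how reads that match both BZR1 and BES1 were counted.

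Ratios within a library do not depend on how libraries are scaled to each other, and 4 pairs of genes were compared this way in the 4 comparisons, which makes 16 tests. With 3 libraries against 3, the exact two-sided permutation test cannot give a p under 0.1, and 0.1 becomes 0.12 after adjustment over the 16 tests, so none could pass 0.05. The log2 ratio of BZR1 to BES1, per length, was -3.33 ± 0.03 (SD, n = 3) in DMSO and -2.90 ± 0.09 on rac-GR24. It was -2.15 ± 0.04 in intact WT, -1.88 ± 0.03 in brc1-2 and -1.71 ± 0.11 in decapitated WT. The groups did not overlap in any of the 4 comparisons of this ratio, and the ratio was lower in the control group than in the treated or mutant group each time. The log2 ratio of BES1 to CPD was 1.65 ± 0.23 in DMSO and 1.11 ± 0.15 on rac-GR24, and 0.28 ± 0.03 in intact WT, 0.37 ± 0.03 in brc1-2 and -0.03 ± 0.09 in decapitated WT. No groups compared overlapped here either, and the mutant and the decapitated plants lay on opposite sides of intact WT. The log2 ratio of BR6OX1 to BR6OX2 was -4.72 ± 0.54 in intact WT, -3.47 ± 0.20 in brc1-2 and -5.42 ± 0.29 in decapitated WT, again without overlap. In seedlings it was -4.42 ± 0.30 in DMSO and -4.39 ± 0.15 on rac-GR24, with overlap. The log2 ratio of BAS1 to SOB7 averaged 3.93 in DMSO and 3.23 on rac-GR24, without overlap. In axils this ratio was 1.70 ± 0.09 in intact WT, 1.38 ± 0.17 in brc1-2 and 1.40 ± 0.32 in decapitated WT, and decapitated WT overlapped the others.

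**Figure D3:**
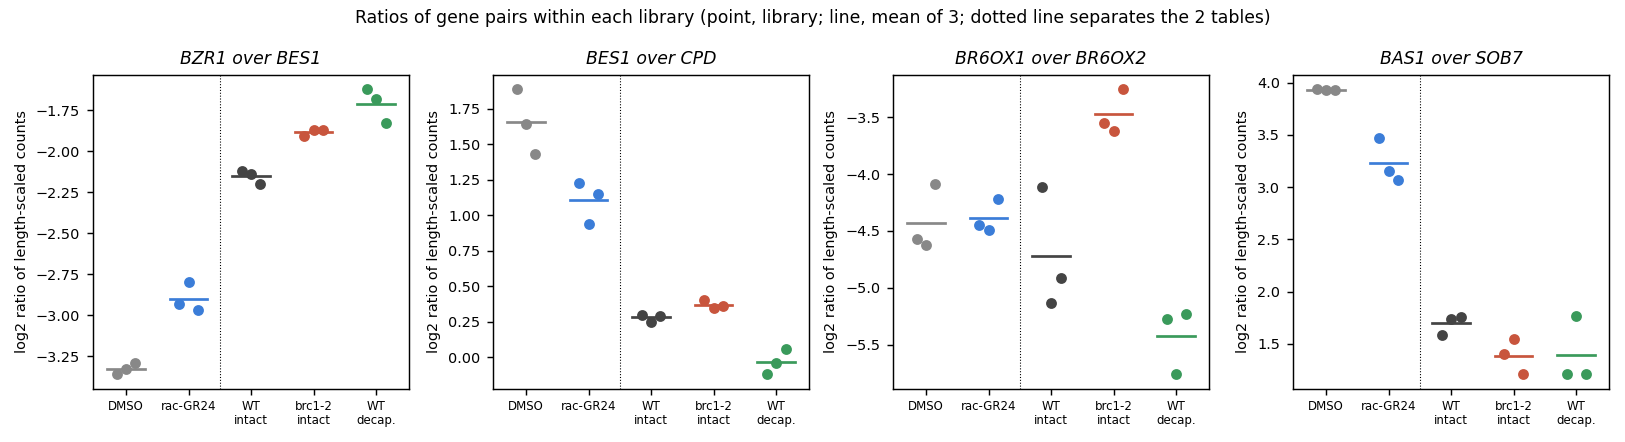
Log2 ratio of length-scaled counts for 4 gene pairs within each library (points, libraries; line, mean of 3). The ratio of BZR1 to BES1 is -3.33 in DMSO and -2.90 on rac-GR24 and lies between -2.15 and -1.71 in the axillary groups; that of BR6OX1 to BR6OX2 separates brc1-2, at -3.47, from the rest.

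A further 73 genes of the pathway were read in lists by role. On rac-GR24 11 of the 69 tested were higher and 24 lower, with a median log2 change of -0.10, beside 12.4% higher and 11.7% lower among all genes. In brc1-2 21 of 66 were higher and 17 lower (median 0.01), close to the 30.4% and 30.5% of all genes. After decapitation 12 were higher and 32 lower (median -0.11), beside 29.4% and 33.5% of all genes. In decapitated WT against brc1-2 9 of 66 were higher and 30 lower (median -0.15), beside 24.4% and 24.1%. The counts of each list below are to be read against the same shares, and no list was tested against the other genes.

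Among 10 other genes of sterol and brassinosteroid synthesis few changes were large. On rac-GR24 1 was higher and 3 lower (median -0.10). CYP90D1, named above, was the one that rose, and DWF1, a sterol reductase, fell by 0.41 ± 0.06 (adjusted p 2.0e-04), with SQS1, a squalene synthase, at -0.20 ± 0.05 (adjusted p 0.018), a call lost without DMSO library 1 (0.061) or without rac-GR24 library 1 (0.073) or 3 (0.064). In brc1-2 3 were higher and 2 lower (median 0.01), among them CAS1, the cycloartenol synthase at the head of the plant sterol route, at 0.26 ± 0.03, DWF1 at 0.23 ± 0.03 and HYD1, a sterol isomerase, at -0.19 ± 0.04. After decapitation 2 were higher and 2 lower (median -0.02), with FK, a sterol reductase, at 0.16 ± 0.05 and CAS1 at 0.09 ± 0.03. DWF5, another sterol reductase, was at -0.12 ± 0.03 there, and its call was lost when only the 2 groups compared were fitted (adjusted p 0.0523). In decapitated WT against brc1-2 2 were higher and 3 lower (median -0.04), with DWF1 at -0.23 ± 0.03, CAS1 at -0.17 ± 0.03 and FK at 0.16 ± 0.05. The call of FK was lost without decapitated library 1 (adjusted p 0.0538).

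Of 6 other inactivation genes 5 could be tested in seedlings and 3 in axils. DOGT1, a glucosyltransferase that acts on brassinosteroids, rose on rac-GR24 by 0.40 ± 0.10 (adjusted p 0.01) and was the 1 gene of the 5 called. All 3 fell after decapitation (median -0.53), namely DOGT1 by 0.53 ± 0.13, the acyltransferase gene BAT1 by 0.53 ± 0.13 and the reductase-like gene BEN1 by 0.28 ± 0.08. In decapitated WT against brc1-2 BAT1 was at -0.64 ± 0.13 and BEN1 at -0.27 ± 0.08, both called. DOGT1 in brc1-2 was at the threshold (-0.29 ± 0.12, adjusted p 0.0499) and lost its call under DESeq2 (0.086), under DESeq2 size factors (0.06), with no filter (0.0539), without any one of the intact WT libraries (0.063 to 0.13) and without brc1-2 library 1 (0.19) or 2a (0.11). UGT73C6, a close tandem copy of DOGT1, had 0 counts in every library, and no source states how reads that match both copies were counted.

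Among 20 receptor and kinase genes 2 rose and 5 fell on rac-GR24 of 19 tested (median 0.01). BKI1, which holds BRI1 inactive, fell by 1.02 ± 0.20 (adjusted p 0.0015), from 4.61 to 2.25 CPM. BRS1, a secreted carboxypeptidase linked to BRI1 signalling, fell by 0.70 ± 0.08, and BRL3, a BRI1-like receptor, rose by 0.58 ± 0.09. In brc1-2 4 rose and 6 fell of 18 tested (median -0.06), and after decapitation 4 rose and 6 fell (median -0.07). BIN2, the kinase that inactivates BZR1 and BES1, stood at 160 CPM in intact WT, 115 CPM in brc1-2 and 118 CPM in decapitated WT, lower by 0.48 ± 0.03 and 0.45 ± 0.03 on the log2 scale (-0.48, adjusted p 4.8e-13, and -0.45, adjusted p 1.8e-12). BRL1, another BRI1-like receptor, was lower in both as well, at -0.60 ± 0.09 and -0.64 ± 0.09, and BRS1 was higher in both, at 0.78 ± 0.05 and 0.43 ± 0.05. In decapitated WT against brc1-2 2 were higher and 4 lower (median 0.01), with SERK4, a co-receptor kinase, at -0.43 ± 0.06, BRS1 at -0.35 ± 0.05 and BRL3 at 0.54 ± 0.10.

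The 4 other members of the BZR family did not move as one. On rac-GR24 BEH2 rose by 0.26 ± 0.07 (adjusted p 0.016) and BEH3 fell by 0.33 ± 0.10 (adjusted p 0.034), while all 4 had a median of -0.20. The call of BEH2 was lost without DMSO library 2 (0.06) or rac-GR24 library 3 (0.085), and that of BEH3 under DESeq2 (0.0534) and without any one library other than DMSO library 1 (0.069 to 0.12). BEH3 was higher in brc1-2 (0.16 ± 0.06, adjusted p 0.035), a call lost without intact WT library 1 (0.061) or 3 (0.17) or brc1-2 library 2b (0.18). After decapitation BEH1 fell by 0.60 ± 0.06 (adjusted p 3.5e-09) and BEH2 by 0.25 ± 0.06, and BEH3 rose by 0.26 ± 0.06. Against brc1-2, decapitated WT was lower in BEH1 (-0.47 ± 0.06) and BEH2 (-0.37 ± 0.06).

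Factors that act with the BZR proteins or on the genes described here changed in more than one direction. On rac-GR24 2 of 8 rose and 2 fell (median -0.12). BIM1, a partner of BES1, rose by 0.47 ± 0.07 (adjusted p 1.4e-04), and HAT2 and HAT1, homeodomain factors of which HAT1 acts with BES1, fell by 0.44 ± 0.07 and 0.41 ± 0.11. The call of HAT1 was lost without DMSO library 3 (0.0531) or rac-GR24 library 1 (0.056). In brc1-2 3 of 9 rose and 3 fell (median -0.01). LOB, a boundary factor that activates BAS1, went from 25.2 to 12.8 CPM (-0.97 ± 0.07, adjusted p 2.2e-12), beside the BAS1 change of -0.01 given above. LOB was also lower after decapitation (-0.57 ± 0.07, adjusted p 5.8e-08), where BAS1 was at -0.30. TCP1, which activates DWF4, rose by 0.41 ± 0.05 (adjusted p 1.6e-08) and HAT1 by 0.70 ± 0.06. After decapitation 5 of 9 fell and the other 4 passed the test in neither direction (median -0.35), among them MYBL2, a repressor that works with BES1, by 1.16 ± 0.08, ATAF2, a repressor of BAS1 and SOB7, by 0.67 ± 0.08, and TCP1 by 0.40 ± 0.05. ATAF2 was also lower in brc1-2 (-0.34 ± 0.08, adjusted p 6.7e-04), beside the BAS1 change of -0.01. On rac-GR24 ATAF2 was higher (0.24 ± 0.08, adjusted p 0.036), where BAS1 was at -0.43. The part of LOB and ATAF2 in the level of BAS1 was not tested. In decapitated WT against brc1-2 1 was higher and 6 lower (median -0.33), with MYBL2 at -1.15 ± 0.08, TCP1 at -0.80 ± 0.05 and HAT1 at -0.80 ± 0.06.

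Among genes known to be induced by brassinosteroids, more fell than rose on rac-GR24 and after decapitation, and more rose than fell in brc1-2. On rac-GR24 10 of 16 fell and 3 rose, with a median of -0.64. The 3 that rose were PRE3 (0.96 ± 0.29), EXL1 (0.65 ± 0.13) and EXL2 (0.53 ± 0.07). The cell wall loosening genes EXPA8, EXPA1 and XTH19 fell by 2.48 ± 0.08, 1.69 ± 0.09 and 1.57 ± 0.08, from 71.5 to 12.9 CPM, from 335 to 104 CPM and from 105 to 35.2 CPM. In brc1-2 8 of 15 rose and 2 fell (median 0.20). The growth-promoting helix-loop-helix genes KDR and PRE1 rose by 1.19 ± 0.07 and 1.04 ± 0.11, and EXL2, a relative of the growth gene EXO, fell by 0.83 ± 0.04. After decapitation 10 of 15 fell and 3 rose (median -0.38). Among those that fell were EXPA8 by 0.98 ± 0.07, KDR by 0.97 ± 0.08 and EXL2 by 0.88 ± 0.04. The 3 that rose were EXL1 by 1.48 ± 0.20, EXO by 0.44 ± 0.04 and TCH4 by 0.37 ± 0.06. KDR stood at 14.6 CPM in intact WT, 33.4 CPM in brc1-2 and 7.47 CPM in decapitated WT, so the mutant and the decapitated plants were on opposite sides of intact WT. Decapitated WT was lower than brc1-2 in 10 of the 15 and higher in 2 (median -0.62), with KDR at -2.16 ± 0.07, EXPA8 at -1.46 ± 0.07 and BEE2, a further helix-loop-helix gene, at -0.71 ± 0.06.

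Genes known to be repressed by brassinosteroids were not a mirror image of these. On rac-GR24 1 of 7 rose and 3 fell (median -0.22). BZS1, a B-box factor, rose 5.59-fold, from 2.31 to 13.1 CPM (2.48 ± 0.15, adjusted p 6.5e-08), while the RING finger gene BRH1 and the GATA factor gene GNL fell by 0.75 ± 0.09 and 0.75 ± 0.12. In brc1-2 2 rose and 3 fell (median -0.02). IBH1, a growth-inhibiting helix-loop-helix gene, was at -1.04 ± 0.08, BRH1 at -0.44 ± 0.04 and GLK1, a chloroplast development factor, at -0.30 ± 0.03. The 2 that rose were GNL by 0.44 ± 0.07 and GNC by 0.41 ± 0.05. After decapitation 2 rose and 4 fell (median -0.46). IBH1 was at -1.23 ± 0.08, GLK1 at -0.48 ± 0.03 and its paralog GLK2 at -0.46 ± 0.03. The 2 that rose were BZS1 by 1.16 ± 0.30, from 0.54 to 1.21 CPM, and GNL by 0.62 ± 0.07. In decapitated WT against brc1-2 2 were higher and 3 lower (median -0.19), with GLK2 at -0.52 ± 0.03, the GATA factor gene GNC at -0.50 ± 0.05 and GLK1 at -0.19 ± 0.03.

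**Figure D4:**
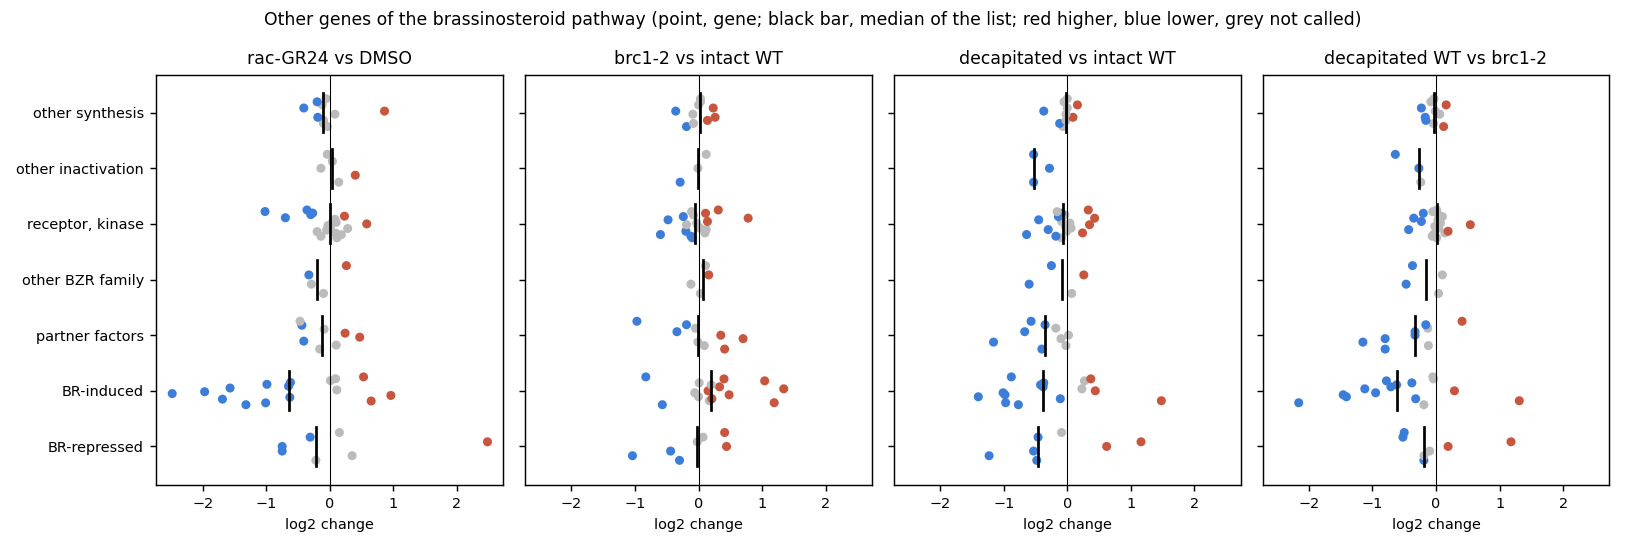
Log2 change of the other pathway genes by role in the 4 comparisons (points, genes tested; black bar, median of the list; red higher, blue lower, grey not called). Brassinosteroid-induced genes have medians of -0.64, 0.20, -0.38 and -0.62 from left to right; after decapitation the medians of the inactivation and the brassinosteroid-repressed genes, -0.53 and -0.46, lie further from 0.

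Many markers of tissue moved with these groups, beside 24%, 60.9% and 62.9% of all genes called on rac-GR24, in brc1-2 and after decapitation. All 9 leaf photosynthesis markers rose in brc1-2 and all 9 fell after decapitation, and 6 of 9 fell on rac-GR24, where their sum was between 34539 and 36577 CPM against 38009 to 43872 CPM in DMSO. Of 8 secondary wall markers 7 fell after decapitation, from a sum of 200 to 207 CPM in intact WT to 135 to 142 CPM. NST3 was at 3 counts or fewer in the decapitated group. In brc1-2 4 of the 8 rose and 1 fell, and on rac-GR24 3 of the 7 tested fell. Of 6 axil and meristem markers 1 rose (CUC3) and 3 fell after decapitation. In brc1-2 1 of the 6 fell, and on rac-GR24 2 rose and 1 fell. Root markers summed to between 4812 and 5141 CPM on rac-GR24 and between 2784 and 3086 CPM in DMSO, and in axils to between 178 and 182 CPM in brc1-2, 305 and 324 CPM in intact WT, and 514 and 521 CPM in decapitated WT, with PLT1 at 3 counts or fewer in each axillary group. Nearly all of each sum was PYK10, with means of 4923 CPM on rac-GR24, 2859 CPM in DMSO, and 179, 317 and 516 CPM in those axillary groups. Of the 7 root markers 3 rose on rac-GR24, and of the 3 that could be tested in axils 1 fell in brc1-2 (PYK10) and 2 rose after decapitation (PYK10 and WOX5). CASP1, CASP2, PLT1 and WOX5 were not called on rac-GR24, and CASP1 was not called after decapitation. The part of these markers in the changes of the 10 genes was not tested.

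Genes with the pattern most like DWF4 and BAS1 were looked up over the 5 group means, among 17105 genes with at least 1 CPM in every group, by the root mean square difference in log2 CPM after each gene was centred on its own mean. For DWF4 the closest were AT3G26910 (0.02), AT3G48060 (0.03) and ECIP1 (0.03), and 173 genes lay within 0.1. For BAS1 the closest were ATSPS4F (0.18), SIP1 (0.21) and AT5G53110 (0.21), and 0 genes lay within 0.1. The distance is not scaled to the size of a gene's changes, and it takes in the untested gap between seedlings and axils. Group means ran from 5 to 56.7 CPM for BAS1 and from 12.4 to 22.2 CPM for DWF4. The numbers of near genes are thus no measure of how particular either pattern is.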

How the data were processed

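The authors deposited raw gene counts, 1 table for seedlings and 1 for axillary tissue, each with exon coordinates in the layout of featureCounts (per the file headers). Named in the submitters' processing notes are TAIR10, HISAT2 2.0.5, featureCounts 2.0.1, fastp 0.23.1 and cutadapt 3.5, without order or settings. The last line of the seedling table was incomplete, and it lacked 609 of the axillary genes. For brc1-2, 2 columns of the axillary counts had the same name and are called 2a and 2b. Even numbers made up 60.8% to 71.8% of counts from 1 to 20, so halved counts were also tried.

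Low genes were removed by filterByExpr (at least 10 counts, total at least 15), libraries were scaled by TMM, and edgeR 4.0.16 (quasi-likelihood test, Benjamini-Hochberg adjustment, threshold 0.05) was run in R 4.3.3, with 1 fit over the 6 seedling libraries and 1 over the 9 axillary libraries. Common biological coefficients of variation were 8.92% and 5.11%. After the main fits the test was also tried on counts simulated from the levels and spread of these data, and its outcome is not used here. CPM used TMM-scaled totals. SE was taken as the log2 change divided by the root of F. No 2 libraries of a group matched within sampling noise (chi-square per degree of freedom 3.05 to 19.03), but the labels do not say whether they came from separate plants, so the spread that p-values measure may be technical.

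The 10 genes and the lists were chosen with earlier results of these data known. Named genes were all 10, the 3 with the smallest p of each list among those past the threshold, 3 genes most like DWF4 and BAS1, and BRC1. CYP90D1 in axils, AT1G75090 and RRA3 were added outside that rule where they bear on a gene described. Alternatives were DESeq2 1.42.0, DESeq2 size factors, no filter, halved counts, a fit of the groups compared, a replicate block, TPM and leaving out each library. The 8 CUT&Tag samples were not analysed here. No promoter or protein sequence was used here, so a planned motif count was not run.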

Additional observations from a re-analysis of the deposited data

How the results depend on the processing

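The number of the 10 genes called stayed within 1.5 times under every setting run, with 4 to 6 on rac-GR24, 6 to 7 in brc1-2, 4 to 6 after decapitation and 5 to 7 in decapitated WT against brc1-2 when single libraries were left out; by direction, 0 to 2 were higher on rac-GR24, 1 to 2 higher in brc1-2, and 2 to 4 lower in decapitated WT against brc1-2. The calls that were lost or gained are given beside each gene that was followed through the settings. Not followed were CYP90D1 in axils, LOB after decapitation, and ATAF2 on rac-GR24 and in brc1-2. Nor were the brassinosteroid-induced genes named as rising on rac-GR24 and after decapitation. The same holds for the brassinosteroid-repressed genes named as rising in brc1-2 and after decapitation. The genes that overlap one of the 10 and the tissue markers other than BRC1 were not followed either. The directions that turned belong to changes that passed no test. On leaving out a library, BR6OX1 on rac-GR24 ranged from -0.04 to 0.47, DET2 on rac-GR24 from -0.06 to 0.14, BAS1 in brc1-2 from -0.09 to 0.05 and SOB7 after decapitation from -0.13 to 0.20. BR6OX2 after decapitation was 0.01 under DESeq2 size factors, with no filter, under DESeq2, with only the 2 groups compared and with the replicate block. In TPM, with no test, the log2 ratio of decapitated to intact WT was -0.25 for CPD, 0.04 for BR6OX2 and -0.11 for BZR1. No scaling moved the median of all genes by more than 0.03. Libraries with the same replicate number did not deviate together (r of -0.06 to 0.09 in seedlings and 0.01 to 0.02 between decapitated and intact WT; between intact WT and brc1-2, r was 0.05 for library 1, 0.06 for intact WT 2 with 2a, -0.06 for 2 with 2b, and 0.13 for 3 with 2b), and with a replicate block 5 of the 10 genes were called on rac-GR24 and 5 after decapitation, of 4712 and 13406 genes called in all, the latter 6741 higher and 6665 lower. For comparisons with brc1-2 the block was not run, because its columns do not show which library is replicate 2. Low counts limit BR6OX1, with 17 to 110 per axillary library.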
